A study of Mus musculus with 6 samples.

Results

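The MCM helicase and replication licensing genes described here are Mcm2, Mcm3, Mcm4, Mcm5, Mcm6, Mcm7, Mcm10, Cdc6, Cdt1 and Gmnn. They were taken by gene symbol from the deposited expression table, and all 10 were present among its 11644 genes. The smallest number of reads behind any of the 10 values in a library was 877 (Gmnn, inhibitor library 2), so none of them was near the lower limit of the table.

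Before a cell copies its DNA, each origin of replication is licensed. The origin recognition complex marks the site, CDC6 and CDT1 join it, and together they load the ring-shaped MCM2 to MCM7 helicase onto DNA. The helicase stays inactive until CDC45, the GINS complex and MCM10 start it in S phase. Reloading within the same cycle is prevented by geminin, the product of Gmnn, which binds CDT1, and by the destruction of CDT1 through the CRL4 ubiquitin ligase with its receptor DTL. Most of these genes are transcribed under the control of E2F factors, and licensing proteins are lost when cells leave the cycle.

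MLL-ENL/NrasG12D cells, a mouse leukemia line with an MLL-ENL fusion and a mutant Nras, were cultured for 72 h with 5 µM of the PRMT5 inhibitor EPZ015666 or with an equal amount of its solvent DMSO, with a repeat of the treatment on day 2. Both groups carry the fusion and the mutant Nras, so every comparison is between treatments of 1 kind of cell. Poly-A RNA was measured in 3 DMSO and 3 inhibitor libraries. The series calls the replicates independent without saying what was repeated, so p-values measure only the spread between these libraries.

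The libraries held 11335948 to 19197912 reads assigned to genes. Values are normalized counts: the reads of a gene, scaled by a per-library size factor. In what follows, ± after a mean is the SD and ± after a log2 fold change is the limma standard error, both with n = 3 in each group. DMSO library 2 stood apart in Ddit3, a stress-induced transcription factor gene chosen after its values were seen, with 1378 normalized counts against 171 and 237 in DMSO libraries 1 and 3. Ptprc (CD45) had a mean of 6899.8 normalized counts in DMSO against 6867 with the inhibitor, and 8 of 9 listed myeloid genes were in the table. None of the 13 listed B cell, T cell and erythroid genes was in it. Genes were looked up by symbol, so a gene entered under another name would be missed. Of 6 stromal, endothelial and epithelial genes 3 were in the table: Pecam1, Cdh5 and Epcam. Pecam1, also a gene of blood cells, had 2996 to 3977 in the 6 libraries, and Cdh5 and Epcam no more than 18.3. The summed myeloid list ran from 14463 to 15877 normalized counts over the DMSO libraries and from 21527 to 21746 over the inhibitor libraries. Itgam (1667 to 6314) and Csf1r (1235 to 3912) together gained more than the sum did, and the median log2 fold change of the 8 genes was 0.11. Itgam, Csf1r, Spi1 and Csf3r were called higher and Cebpa and Mpo lower; the part of this shift in the results below was not tested.

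Transcripts of 5 of the 6 ring subunits and of Cdt1 were lower with the inhibitor, whereas that of geminin, the inhibitor of CDT1, was higher. With limma, at an adjusted p under 0.05, Mcm2, Mcm3, Mcm4, Mcm6, Mcm7 and Cdt1 fell, Gmnn rose, and Mcm5, Mcm10 and Cdc6 did not pass. These are 6 lower and 1 higher of 10, where 22.9% of all genes were called lower, 23.6% higher and 46.5% in either direction. Libraries of the groups did not overlap for 6 of them: the inhibitor libraries were all below DMSO for Mcm2, Mcm3, Mcm6, Mcm7 and Cdt1 (as for 27.9% of all genes) and all above for Gmnn (28.2%). The median log2 fold change of the 10 genes was -0.33, and that of all genes was 0.0012. In this bulk RNA, fewer cells in the cycle and less RNA in each cell cannot be told apart. The number of lower genes was 9 without DMSO library 2 or without inhibitor library 1, and 3 (Mcm2, Mcm7 and Cdt1) without inhibitor library 2, a fit that called 4145 genes in all in place of 5418.

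**Figure D1:**
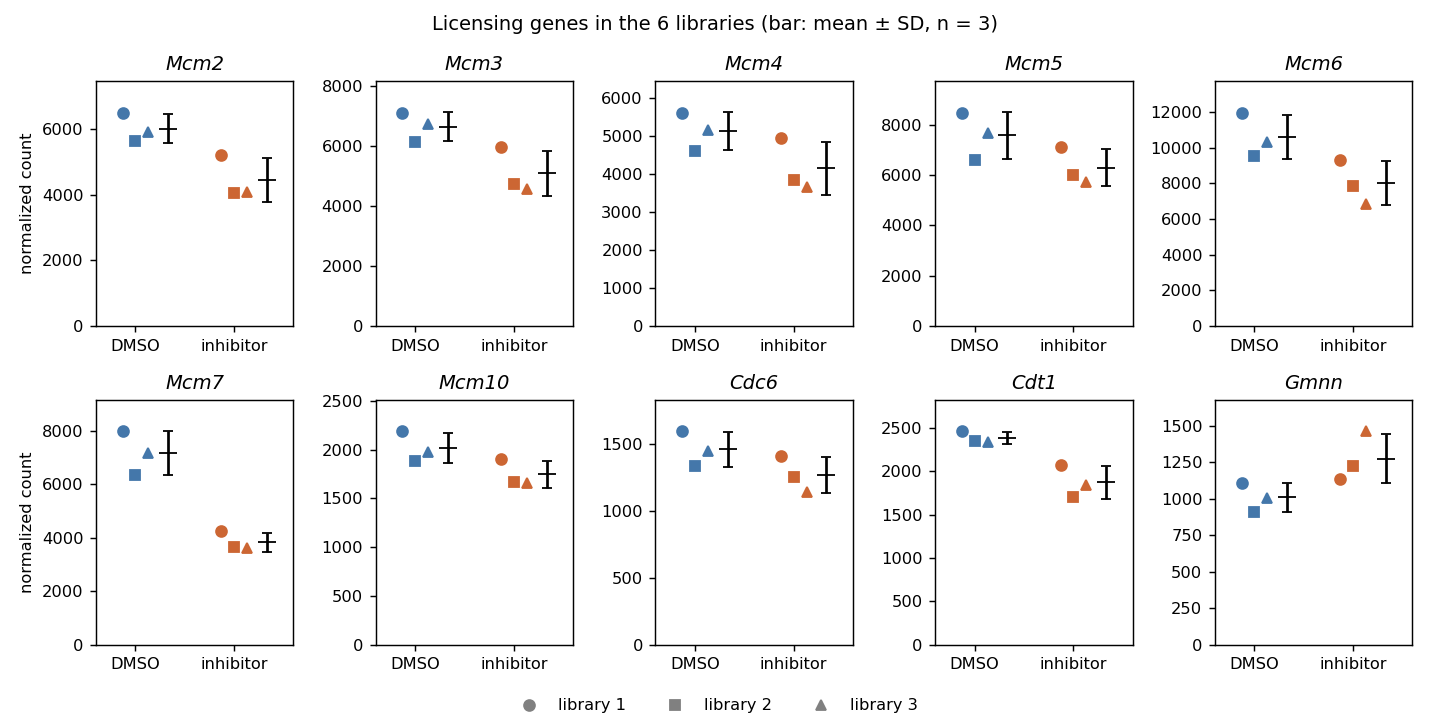
Normalized count (y axis, from 0) of each of the 10 licensing genes in the DMSO (blue) and inhibitor (orange) libraries; marker shapes give the library number and black bars the mean ± SD of 3 libraries. The widest gap between the groups is that of Mcm7, at 6351 to 7975 in DMSO and 3615 to 4238 with the inhibitor, and Gmnn is the gene with all inhibitor libraries above DMSO.

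Mcm7 (chromosome 5, 138164583 to 138172422, minus strand, mm10) encodes a subunit of the helicase ring and fell most of the 10 genes. It had 7975, 6351 and 7188 normalized counts in DMSO libraries 1 to 3 and 4238, 3639.9 and 3615 in inhibitor libraries 1 to 3. All inhibitor libraries lay far below all DMSO libraries. The mean was 1.87-fold lower, with a log2 fold change of -0.90 ± 0.10 (95% interval -1.13 to -0.68, limma adjusted p = 3.80e-05). This call was kept under all 15 alternatives, with limma, edgeR or DESeq2 adjusted p between 9.36e-16 and 0.000916.

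The other subunits moved by less. Mcm2 (chromosome 6, 88883474 to 88898780, minus strand), whose protein also binds histones, had 6480.2, 5617 and 5915 normalized counts in DMSO against 5209.6, 4038 and 4069 with the inhibitor. The groups did not overlap, and the log2 fold change was -0.44 ± 0.11 (limma adjusted p = 0.00600). Mcm3 (chromosome 1, 20802968 to 20820312, minus strand), which meets the origin recognition complex and CDC6 during loading, had 7091, 6117 and 6711 against 5951, 4736 and 4568. It too was lower in every inhibitor library, by a log2 fold change of -0.39 ± 0.11 (limma adjusted p = 0.0122). Without inhibitor library 2 the fall of Mcm3 did not pass (limma adjusted p = 0.0688).

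Mcm6 (chromosome 1, 128331590 to 128359664, minus strand), the subunit that contacts CDT1, had 11956, 9563 and 10328 normalized counts in DMSO against 9333, 7882 and 6839 with the inhibitor. Inhibitor library 1 came within a small margin of DMSO library 2 without reaching it. Its log2 fold change was -0.41 ± 0.13 (limma adjusted p = 0.0186), and the call did not survive removal of DMSO library 1 (limma adjusted p = 0.081) or of inhibitor library 2 (0.0713) or 3 (0.0647).

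Mcm4 and Mcm5 had overlapping groups. Mcm4 (chromosome 16, 15623897 to 15637400, minus strand), part of the catalytic core with MCM6 and MCM7, had 5617, 4609 and 5181 normalized counts in DMSO against 4963, 3851 and 3666 with the inhibitor. Inhibitor library 1 was above DMSO library 2. Its fall was at the edge of the test, at a log2 fold change of -0.31 ± 0.12 (limma adjusted p = 0.0491), and did not pass without DMSO library 1 (limma adjusted p = 0.165) or 3 (0.108), without inhibitor library 2 (0.181) or 3 (0.159), or among genes with a mean of at least 100 normalized counts (0.052). Mcm5 (chromosome 8, 75109569 to 75128439, plus strand), at the gate of the ring, had 8469.5, 6615 and 7677 in DMSO and 7128, 6019.9 and 5727 with the inhibitor. It did not pass (log2 fold change -0.27 ± 0.11 with 95% interval -0.52 to -0.02, limma adjusted p = 0.0727). That interval reaches from a fall like that of Mcm2 to almost no change. Mcm5 passed as lower without DMSO library 2 (limma adjusted p = 0.0186), without inhibitor library 1 (0.0246) and with DESeq2 (adjusted p = 0.0409).

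Mcm10 (chromosome 2, 4989714 to 5012791, minus strand) is not a ring subunit despite its name; its protein activates the loaded helicase. It had 2188, 1884 and 1981 normalized counts in DMSO against 1907, 1674 and 1657 with the inhibitor, with inhibitor library 1 above DMSO library 2. The log2 fold change of -0.21 ± 0.09 (95% interval -0.40 to -0.01) did not pass (limma adjusted p = 0.0750). It passed as lower without DMSO library 2 (limma adjusted p = 0.0449), without inhibitor library 1 (0.0307), and on log2 CPM, which scales by library total, with TMM factors (0.0489).

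Of the loaders of the helicase, Cdt1 passed the test and Cdc6 did not. Cdt1 (chromosome 8, 122568015 to 122573554, plus strand) had 2459, 2353 and 2335 normalized counts in DMSO, a narrow range, and 2073, 1700.4 and 1840.2 with the inhibitor. No inhibitor library reached the lowest DMSO library. The mean was 1.27-fold lower (log2 fold change -0.35 ± 0.09 with limma adjusted p = 0.00625), and the call was kept under all 15 alternatives (adjusted p 0.00203 to 0.0419). Cdc6 (chromosome 11, 98907801 to 98923940, plus strand), an ATPase that works with the origin recognition complex, had 1589.9, 1331 and 1446 in DMSO and 1406, 1250.1 and 1141 with the inhibitor. Its groups overlapped, and its log2 fold change of -0.20 ± 0.10 (95% interval -0.42 to 0.01) did not pass (limma adjusted p = 0.111). The fall of Cdc6 passed without DMSO library 2 (limma adjusted p = 0.0493) or inhibitor library 1 (0.041). A difference between Cdt1 and Cdc6 in response was not tested.

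Gmnn (chromosome 13, 24751845 to 24761923, minus strand) went the other way. It had 1111, 912 and 1002 normalized counts in DMSO against 1136, 1226 and 1461 with the inhibitor. Every inhibitor library was above every DMSO library, though inhibitor library 1 lay close to DMSO library 1. The mean was 1.26-fold higher (log2 fold change 0.33 ± 0.11 with 95% interval 0.10 to 0.57, limma adjusted p = 0.0245). The rise of Gmnn did not pass without DMSO library 2 (limma adjusted p = 0.0667) or 3 (0.059), or without inhibitor library 2 (0.058) or 3 (0.0892), and it stayed positive in each of these fits.

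Because geminin binds CDT1, the ratio of their transcripts was taken within each library, where the size factor cancels. Gmnn stood at 0.452, 0.388 and 0.429 of Cdt1 in DMSO libraries 1 to 3 and at 0.548, 0.721 and 0.794 in inhibitor libraries 1 to 3. The ratio of mean ratios was 1.63, and the groups did not overlap. This is a description of transcripts, with no test, and the proteins were not measured.

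**Figure D2:**
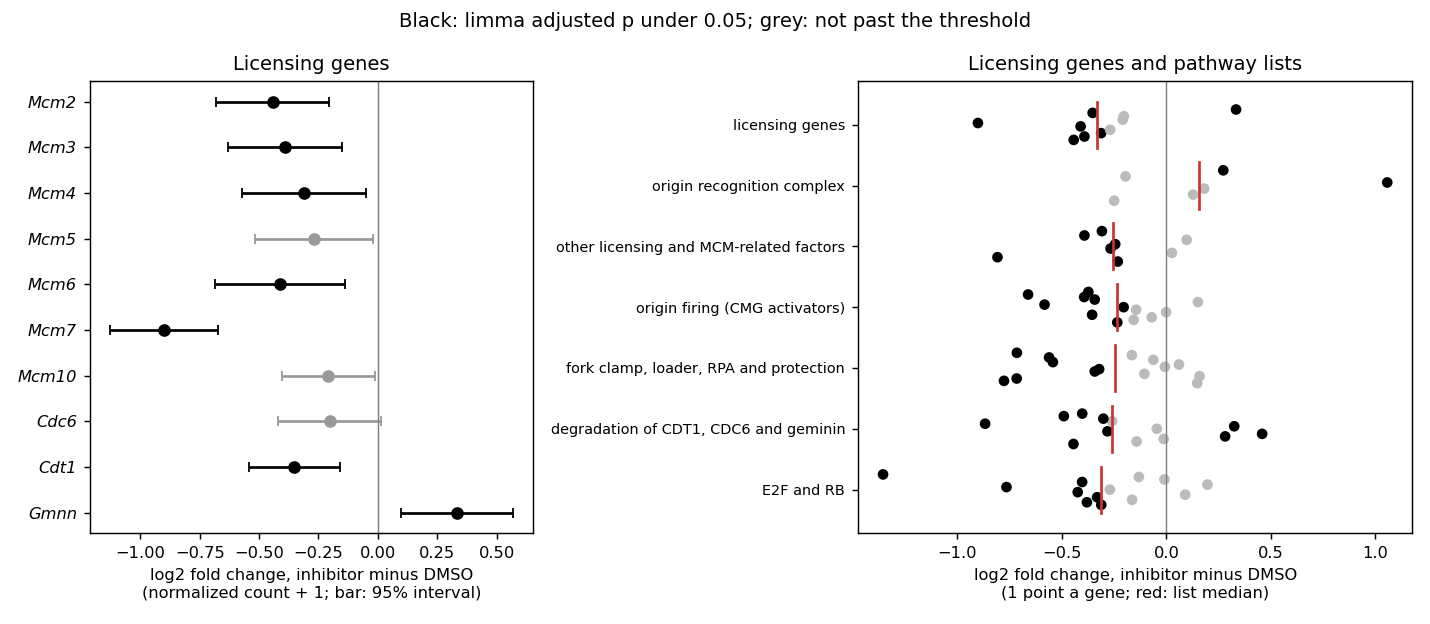
Log2 fold change of inhibitor minus DMSO (x axis; normalized count + 1) for the 10 licensing genes with 95% intervals (left) and for these genes and the measured genes of 6 pathway lists (right, 1 point a gene, red lines at list medians). Black points passed limma at an adjusted p under 0.05; Mcm7 lies lowest of the 10 licensing genes at -0.90 and Orc4 highest of all points at 1.06.

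For comparison between genes, normalized counts were divided by the exon length of each gene (2962 bases for Mcm7, 4375 for Mcm6). On this scale, as a level in DMSO, Mcm6 had 2426 ± 279 normalized counts per kb, Mcm7 2421 ± 274, Mcm5 2195 ± 269 and Mcm3 2191 ± 162. The ranges of these 4 overlapped between libraries, but within each DMSO library Mcm6 and Mcm7 were both above Mcm5 and Mcm3. Mcm2 (1781 ± 130 per kb) and Mcm4 (1431 ± 141 per kb) came next: within each DMSO library Mcm2 lay below these 4 genes, and Mcm4 below Mcm2. Cdt1 had 1088 ± 30.6 per kb and Gmnn 848 ± 83.8, and Mcm10 (407 ± 31.3) and Cdc6 (304 ± 27.1) had the lowest levels of the 10. Each ring subunit was above Cdt1, Gmnn, Mcm10 and Cdc6 in all DMSO libraries. With the inhibitor, Mcm7 had 1293 ± 119 per kb and overlapped Mcm2 (1317 ± 198) and Mcm4 (1159 ± 195), and Gmnn (1072 ± 141 per kb) was above Cdt1 (855 ± 85.9).

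The make-up of the ring transcripts changed with treatment. The 6 subunits together had 47588 (DMSO library 1), 38871 (2) and 42999.6 (3) normalized counts, and 36824, 30168 and 28485 in inhibitor libraries 1, 2 and 3. The summed mean was 1.36-fold lower and the groups did not overlap; no test was made on this sum. Of the per-kb total of the subunits, Mcm7 held 19.7%, 19.1% and 19.5% in DMSO and 13.6%, 14.3% and 14.9% with the inhibitor, where an even share would be 16.7%. The share of Mcm7 was thus above even in each DMSO library and below it in each inhibitor library. Mcm2 held 14.3% ± 0.454 and 14.5% ± 0.467, with overlap. Since shares add to a whole, the share of other subunits had to grow: Mcm5 went from 17.6% ± 0.470 to 20.0% ± 0.373 and Mcm4 from 11.5% ± 0.108 to 12.7% ± 0.385. The ratio of Mcm7 to the geometric mean of Mcm2 to Mcm6, a comparison chosen after the values were seen, was 1.04, 1.01 and 1.03 in DMSO and 0.669, 0.712 and 0.746 with the inhibitor. Every inhibitor library lay below every DMSO library in this ratio, which is a description with no test.

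**Figure D3:**
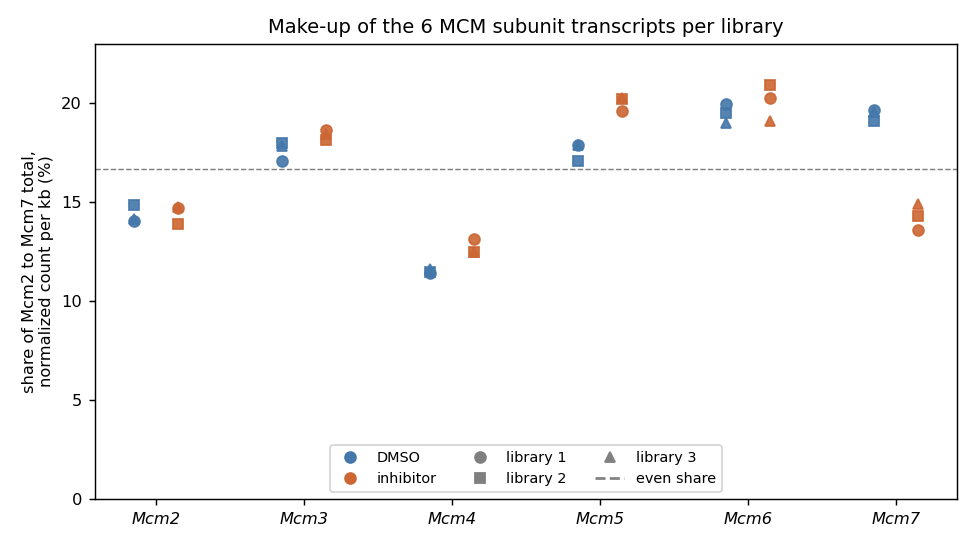
Share of each subunit (y axis, percent) in the summed normalized counts per kb of Mcm2 to Mcm7, for 3 DMSO (blue) and 3 inhibitor (orange) libraries, with a dashed line at the even share of 16.7%. Mcm7 moves from 19.1% to 19.7% in DMSO to 13.6% to 14.9% with the inhibitor, across the line.

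Mcm10 and Cdc6 were also set against the ring within each library. Against the geometric mean of Mcm2 to Mcm7, Mcm10 stood at 0.284, 0.298 and 0.283 in DMSO and at 0.322, 0.346 and 0.359 with the inhibitor. Cdc6 stood at 0.206, 0.211 and 0.207 in DMSO and at 0.237, 0.259 and 0.247 with the inhibitor. Both ratios were higher in every inhibitor library than in every DMSO library, with no test. The geometric mean includes Mcm7, which fell most of the ring genes, and ratios without Mcm7 were not taken.

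Libraries of 1 group differed together in these genes. DMSO library 1 was the highest DMSO library for all 10 genes, and DMSO library 2 the lowest for 9 (Cdt1 was the exception). Inhibitor library 1 was the highest inhibitor library for the 9 genes other than Gmnn and the lowest for Gmnn. For those 9 genes, inhibitor library 1 lay above the other inhibitor libraries by a median log2 difference of 0.28, and inhibitor library 3 lay below by -0.19; over all genes both differences rounded to -0.00. DMSO libraries 1 and 2 lay 0.20 above and -0.19 below the rest of their group for the same 9 genes. For Gmnn the spread ran the same way as the other genes in DMSO (0.22 in library 1) and the opposite way with the inhibitor (-0.24 in library 1 and 0.31 in library 3). The 67 measured genes of the pathway lists shifted the same way as the 9 genes, by smaller medians. These were 0.09 and -0.10 in DMSO libraries 1 and 2, and 0.10 and -0.10 in inhibitor libraries 1 and 3.

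**Figure D4:**
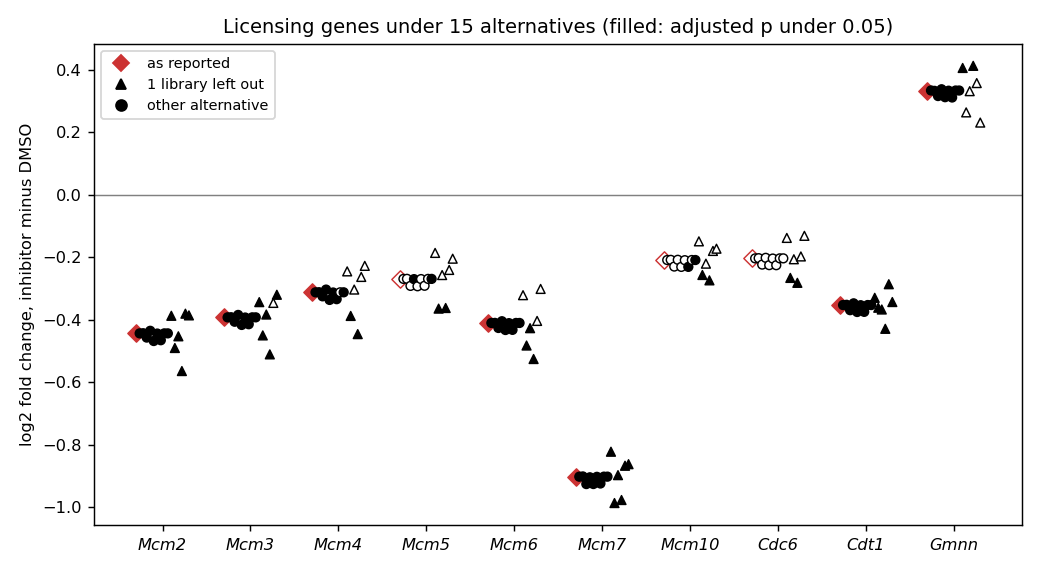
Log2 fold change of inhibitor minus DMSO (y axis) of each licensing gene as reported (red diamond), with 1 library left out (triangles) and under the other alternatives (circles); filled symbols passed at an adjusted p under 0.05. No gene changed direction, Mcm7 stays between -0.99 and -0.82, and the triangles of Mcm3, Mcm4, Mcm5, Mcm6, Mcm10, Cdc6 and Gmnn are partly open.

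Another gene starts within 1 kb of a member on the opposite strand in 2 cases. Ap4m1, a subunit of an adaptor complex of membrane traffic, begins 420 bases from the start of Mcm7, and the annotated genes overlap by 421 bases. Ap4m1 rose from 577 ± 44.8 to 747 ± 56.0 normalized counts (log2 fold change 0.37 ± 0.10 with limma adjusted p = 0.00764) while Mcm7 fell. The library kit keeps the strand, per the labels, but the strand setting of the counting is not given in the sources used here. How reads of the overlap were counted is therefore not known. Prkdc, a kinase of DNA end joining, begins 466 bases from the start of Mcm4 without overlap and had 1507 ± 289 and 1412 ± 200 (log2 fold change -0.09 ± 0.14 with limma adjusted p = 0.625). Neither neighbour fell with its member by this test.

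Mcm7 also carries microRNA hairpins in intron 13, and 2 of the 3 have rows of their own in the table. Those rows count poly-A RNA over the hairpin in the intron, not mature microRNA. The mature arms are shown to mark what this intron encodes, from RefSeq (GRCm38.p6), with the seed, bases 2 to 8, in capitals.
mmu-miR-25-3p: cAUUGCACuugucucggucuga
mmu-miR-93-5p: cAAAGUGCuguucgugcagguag
The seeds differ, so the arms belong to separate seed families. The Mir25 row (chromosome 5, 138165321 to 138165404) had 22.0, 14.5 and 22.6 normalized counts in DMSO against 13.3, 18.2 and 31.2 with the inhibitor, from 68 and 55 reads in all. The Mir93 row (chromosome 5, 138165523 to 138165610) had 8.97, 12.9 and 15.7 against 4.09, 8.39 and 15.1, from 43 and 24 reads. In both rows the groups overlapped, and neither passed (limma adjusted p = 0.964 and 0.366). At this depth the 95% interval of the Mir25 log2 fold change ran from -0.74 to 0.78. That interval holds a fall as well as a rise and overlaps the interval of Mcm7 (-1.13 to -0.68). A difference from Mcm7 was not tested.

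The promoters of these genes were searched for short runs of letters, as a description. RefSeq (GRCm38.p6) gave windows of 300 bases for 8 of the 10 genes, 9 windows in all with 2 for Mcm7; Mcm4 and Gmnn had none in the table used. The E2F-type letters TTTCCCGC, TTTGGCGC, TTTGCCGC and TTTCGCGC, on either strand, were found in 6 of the 9 windows (66.7%), in 3.97% of the windows of genes in the expression table and in 2.26% of all windows. They were present for Mcm3, Mcm5, Mcm6, Mcm7, Cdc6 and Cdt1, and matches can overlap each other. For Mcm7 they were in the window at 138171834 to 138172133 and not in that at 138171217 to 138171516. In Mcm3 and Cdt1 every E2F-type match lay after the RefSeq start. The letters CCAAT were in 77.8% of the 9 windows against 38.1% for the genes of the table, and TTTGAA, the core of a cell cycle element, was in 11.1% (Mcm2) against 12.0%. The 160 bases upstream of the start of Mcm5 (chr8:75109349-75109508, plus strand) and Mcm6 (chr1:128359706-128359865, minus strand), with the E2F-type letters in capitals, show the overlapping form, in which matches on both strands share bases. Mcm6 fell and Mcm5 did not pass.
Mcm5: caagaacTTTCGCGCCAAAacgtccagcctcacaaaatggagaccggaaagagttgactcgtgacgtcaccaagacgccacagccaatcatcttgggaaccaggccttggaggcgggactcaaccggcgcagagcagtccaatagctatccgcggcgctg
Mcm6: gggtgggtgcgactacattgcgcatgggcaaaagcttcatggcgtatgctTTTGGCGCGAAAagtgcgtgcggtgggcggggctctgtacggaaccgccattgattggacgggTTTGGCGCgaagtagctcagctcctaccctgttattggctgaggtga

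Mcm7 and Cdc6, with the largest and the smallest change of the 10 genes in absolute log2 terms, hold the same letters before the RefSeq start used for the window. In the GENCODE annotation, whose bounds for Mcm7 and Cdc6 are given above, both matches lie inside the gene, and that of Mcm7 also lies inside Ap4m1 (138172002 to 138180429). The match in Mcm7 (chr5:138172030-138172059, minus strand) and in Cdc6 (chr11:98908002-98908031, plus strand) is shown with 11 bases on each side.
Mcm7: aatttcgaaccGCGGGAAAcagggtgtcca
Cdc6: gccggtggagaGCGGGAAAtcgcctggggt
A match describes letters in a window and is not evidence of binding. Over the table, 421 genes had an E2F-type match; 30.6% of them were called lower and 14.3% higher, beside 22.9% and 23.8% of the 8808 genes with a window. Their median log2 fold change was -0.10, against -0.00 for those 8808 genes. This count was added after the data had been seen and carries no test.

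The origin recognition complex marks the sites where the ring is loaded. Of its 6 genes, Orc4 and Orc6 rose, none passed as lower and 4 did not pass, with a median log2 fold change of 0.15. Over all genes, 23.6% were called higher and 22.9% lower, and with 6 genes these counts describe the list only. Orc4 had 766, 916 and 809 normalized counts in DMSO against 1483, 1919 and 1804 with the inhibitor, and was 2.09-fold higher (log2 fold change 1.06 ± 0.11 with limma adjusted p = 1.56e-05). Orc6 rose from 934 ± 49.1 to 1128 ± 44.7 (limma adjusted p = 0.0167). Orc2 (1934 and 2113), Orc3 (1510.1 and 1713), Orc5 (487 and 425) and Orc1 (411 and 342 mean normalized counts) did not pass, although for Orc5 every inhibitor library was below every DMSO library, narrowly (446 in inhibitor library 2 against 447 in DMSO library 3), and for Orc3 every one was above. Orc6 did not pass without DMSO library 3 (limma adjusted p = 0.0595) or inhibitor library 2 (0.0671), and Orc1, the subunit that varies over the cycle, passed as lower without DMSO library 2 (0.00826).

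Of 8 other licensing and MCM-related genes, 6 fell and none rose, beside 22.9% and 23.6% of all genes. The median log2 fold change was -0.26. Mcm8, a helicase of recombination and not of licensing, fell 1.74-fold, from 449 ± 5.90 to 258 ± 44.3 normalized counts (limma adjusted p = 0.000336). Its partner Mcm9 had 364 ± 28.1 and 370 ± 6.28 and did not pass (limma adjusted p = 0.842). Setd8, the enzyme of histone H4 lysine methylation and itself a substrate of the ligase that destroys CDT1, fell from 2345 ± 21.3 to 1789 ± 107 (limma adjusted p = 0.00158). Smaller falls passed for Mcmbp, an MCM-binding chaperone (3572 to 3049.5), Kat7, an acetyltransferase that helps loading (2286 to 1934), Lrwd1, a partner of the origin recognition complex (1297 to 1081), and Baz1b, a chromatin remodeller subunit (7886 to 6381 mean normalized counts). Mcm3ap, a factor of mRNA export, did not pass (1498 and 1603). In this list 2 genes fell when DMSO library 1 or 3 was left out, and likewise for inhibitor library 2 or 3.

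Genes that start the loaded helicase were lower or did not pass. Of 13, 8 fell and none rose, beside 22.9% and 23.6% of all genes, with a median log2 fold change of -0.23. Wdhd1, which ties the helicase to DNA polymerase alpha, fell from 1929 ± 132 to 1218 ± 62.5 normalized counts (limma adjusted p = 7.53e-05). Ticrr and Topbp1, which bring CDC45 and GINS to the ring, went from 1056 ± 123 to 702 ± 40.4 and from 7884 ± 565 to 6214 ± 372. Donson, also a factor of helicase assembly, fell from 508 ± 19.2 to 392 ± 21.2 (limma adjusted p = 0.00627). The number of fallen genes was 5 without DMSO library 1 or 3 or inhibitor library 3, and 4 without inhibitor library 2.

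At the fork, 7 of 14 genes for the clamp, its loader, RPA and fork protection fell and none rose. Among all genes 22.9% were called lower and 23.6% higher. The median log2 fold change of the 14 genes was -0.24. The clamp loader subunits Rfc2 (2524 ± 133 to 1537 ± 117 normalized counts, limma adjusted p = 4.84e-05) and Rfc1 (3619 ± 213 to 2119.5 ± 259) had log2 fold changes of -0.72 and -0.78. Timeless, of the fork protection complex, fell from 1979.9 ± 93.1 to 1360.3 ± 106, and Lig1, the ligase of lagging-strand pieces, from 2018 ± 308 to 1226 ± 173.

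Of 13 genes for the destruction of CDT1, CDC6 and geminin, 6 fell, 3 rose and 4 did not pass, with a median log2 fold change of -0.26. Of all genes, 22.9% were called lower and 23.6% higher, so the share of rises is near that of all genes. Dtl, the receptor that brings CDT1 and SETD8 to the CRL4 ligase, fell from 2066 ± 85.8 to 1520.3 ± 121 normalized counts (limma adjusted p = 0.00124). Fbxo31, an F-box receptor that can bind CDT1, fell from 692 ± 36.6 to 380.1 ± 45.2, and Cdc20, an activator of the anaphase-promoting complex, from 2178 ± 165 to 1552 ± 162. The 3 genes that rose were Rbx1 (1246 ± 85.4 to 1712 ± 76.4, limma adjusted p = 0.000893), Skp1a (3258 to 4069.8) and Cul4b (1548 to 1892), which encode core subunits of cullin ligases. Removal of DMSO library 3, or of inhibitor library 2, reduced the 3 rises to 1.

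Among 13 E2F and RB family genes 7 fell, none rose and 6 did not pass, with a median log2 fold change of -0.31. Tfdp2, which encodes 1 of the partners of E2F factors, fell 2.56-fold, from 988 ± 40.5 to 385 ± 21.6 normalized counts (limma adjusted p = 5.35e-07). E2f8 and E2f6, both repressors, fell from 1064 ± 82.4 to 626 ± 43.1 and from 956 ± 54.7 to 711 ± 5.97, and the pocket protein gene Rbl1 from 2014 ± 135 to 1522 ± 87.0. The other genes of this list called lower were E2f1, E2f2 and E2f4. Over all the pathway lists together, 34 of 67 measured genes fell and 5 rose, beside 22.9% and 23.6% of all genes. The lower count was 21 without inhibitor library 2 and the higher count 2 without DMSO library 3 or inhibitor library 2. The geminin relatives Mcidas and Gmnc were not among the genes of the table under these symbols.

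The genes most like the ring in pattern were found by correlating each gene with the mean standardized log2 value of Mcm2 to Mcm7 over the 6 libraries, among 9090 genes with a mean of at least 100 normalized counts. Cdkn2c (Pearson r = 0.9975) and Plk1 (0.9975) were closest, followed by Abcf1 (0.9951), Hnrnpl (0.9944) and Nmral1 (0.9943). Cdkn2c, an inhibitor of cyclin-dependent kinases, had 1883, 1624 and 1770.2 normalized counts in DMSO against 1611, 1396 and 1376 with the inhibitor, the same order of libraries as Mcm3 in each group. Plk1, a kinase of mitosis, had 1258, 1027 and 1155 against 1018, 779 and 757. With 6 libraries in 2 treatment groups, such values describe likeness only. Of the members outside the ring, Mcm10 (r = 0.985), Cdc6 (0.960) and Cdt1 (0.932) followed the same profile, and Gmnn ran against it (-0.707).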

How the data were processed

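Poly-A RNA of 3 DMSO and 3 inhibitor samples was sequenced from stranded libraries, per the labels. The build mm10 and the tools HTSeq 0.6.0, TopHat2 2.0.10, DESeq 1.16.0 and CASAVA 1.8.2 are named in the submitters' processing notes, with no role or order. The authors deposited a normalized signal per gene: division by 1 step per library gave whole numbers for 100% of values (relative tolerance 1e-06), so whole reads were recovered. Every gene reached at least 10 reads in its highest library.

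Groups were taken from sample titles. limma-trend (limma 3.58.1, R 4.3.3) was fitted to log2(normalized count + 1) over all 11644 genes, two-sided, without a replicate block, with Benjamini-Hochberg adjustment over all genes at 0.05. On the recovered reads, edgeR 4.0.16 (quasi-likelihood, TMM), called 5412 genes, against 5418 with limma; DESeq2 1.42.0 and limma-voom were further alternatives, with pseudocounts of 0.5 and 5, other size factors, a minimum mean of 100, a replicate block, and leaving out each library. The limma script was tested on simulated data. No 2 libraries of a group agreed within sampling noise (chi-square per degree of freedom 9.29 to 20.5).

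Coordinates and exon lengths came from GENCODE mouse release 21 (mm10). The genes and lists were chosen with earlier results of these data known. Named by rule were all 10 genes, all measured genes of lists with up to 8 genes, the 4 smallest adjusted p of longer lists with up to 4 calls against the list's majority, and the 5 genes most like Mcm2 to Mcm7.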

Additional observations from a re-analysis of the deposited data

How the results depend on the processing

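None of the 10 licensing genes changed direction under the 15 alternatives. Mcm2, Mcm7 and Cdt1 kept their calls in all 15, Mcm3 in 14, Mcm6 in 12, Gmnn in 11 and Mcm4 in 10. With 1 library left out, the number of lower licensing genes ran from 3 to 9, that of higher ones from 0 to 1, that of lower pathway genes from 21 to 35 and that of higher ones from 2 to 6. The log2 change of the summed Mcm2 to Mcm7 level was -0.443 (-0.553 to -0.368 with 1 library left out, -0.476 per total of recovered reads), and that of the ratio of Gmnn to Cdt1 was 0.687 (0.575 to 0.842 with 1 library left out). The cause of the changed counts was not tested. Over all genes, the fits with 1 library left out called 4145 to 5346 genes, in place of 5418. The count of lower licensing genes was 9 without DMSO library 2 (5346 calls in all) or inhibitor library 1 (5235). Same-numbered libraries of the 2 groups deviated together weakly (r = 0.165, 0.0499 and 0.205), and each library correlated best with its own number, a hint from the data and not from the design. With the replicate block, 8 licensing genes were lower, Mcm5 (limma adjusted p = 0.0257) and Mcm10 (0.0344) now among them, and 1 higher, and 35 pathway genes lower and 5 higher, of 5932 calls in all. The Mir25 and Mir93 rows rest on few reads (68 and 43 over the DMSO libraries, 55 and 24 over the inhibitor libraries). No licensing gene had fewer than 877 reads in a library.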
